A study of Americamysis bahia with 35 samples.

Results

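Whole young mysids of the species Americamysis bahia, a shrimp-like estuarine crustacean and a standard test animal in aquatic toxicology, kept in weathered tire-wear particle leachate at 1.34 g/L, were compared with mysids kept in unweathered leachate at 1.08 g/L. Of the concentrations of unweathered leachate tested, 1.08 g/L is the nearest to 1.34 g/L. The comparison takes 10 of the 35 libraries of the series, 5 from each of these groups, and no control library is on either side of it. All mysids were labelled 5 days old and were exposed through the water for 96 h at 25 °C under 16 h of light and 8 h of dark, in leachate made with filtered seawater of 25 ppt, and were fed Artemia nauplii every 12 h. The other 25 libraries, in groups of 5, belonged to a 0 g/L control, to the unweathered concentrations 0.27 and 0.54 g/L and to the weathered concentrations 0.67 and 2.68 g/L, and serve here to place the transcripts found and, in the fit of all 35, to estimate the spread between libraries, which bears on which transcripts are called. The labels do not say how the particles were weathered, or whether each library was 1 animal, a pool or a tank. The p-values therefore reflect the scatter among these libraries alone, part or all of which may be technical. Because 1.34 and 1.08 g/L differ, weathering and concentration cannot be told apart in this comparison.

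Tire-wear particles are fragments of tread rubber abraded on the road. In water they release rubber additives, among them zinc, benzothiazoles and para-phenylenediamine antioxidants, and sunlight, heat and water change what is left to release. Crustaceans are known to meet such chemicals with cytochrome P450 enzymes, conjugating enzymes, membrane transporters, heat shock proteins and metal-binding proteins, and young mysids also moult often, which changes cuticle and muscle transcripts. The deposited files name transcripts only by the IDs that the assembler Trinity gave them, with no gene names, so none of these functions could be looked up, no list of functional genes could be counted and the labelled tissue could not be checked against marker genes. Transcripts are therefore described by their ID or length, their values and how many isoforms share their Trinity gene, the assembler's group of related transcripts.

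The 10 libraries were alike in depth. Total estimated counts ran from 20098354 to 27041423 in the weathered libraries and from 21275297 to 26206780 in the unweathered ones, and 28828 to 30648 of the 34903 transcripts had a count. Correlations of log2 CPM (counts scaled by library size with TMM factors) ran from 0.849 to 0.919 among weathered libraries, from 0.892 to 0.923 among unweathered ones and from 0.835 to 0.917 between the groups. The first principal component of the 10 libraries held 24.2% of the variance and had weathered replicate 3 at one end, without separating the groups. The third, with 12.2%, did separate them, with unweathered libraries at 19.4 to 55.5 and weathered ones at -121 to 7.85. Weathered replicate 1 stood alone at -121 on it, and the other weathered libraries ran from -42.4 to 7.85. The median correlation of weathered replicate 3 with the other 34 libraries (0.876) was the lowest in the series. Counts of calls without this library are given below. The 100 most-counted transcripts of a library held 44.5% to 46.7% of its counts in the weathered group and 41.7% to 43.2% in the unweathered group, which do not overlap; the control ran from 41.1% to 47.7%, across both. The part of this difference in the results was not tested, apart from the alternative scalings given with the counts.

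The comparison asked which transcripts differ in abundance between mysids in the 2 leachates at close concentrations. Of 27420 transcripts tested, 339 (1.24%) differed: 68 (0.248%) were higher and 271 (0.988%) lower in weathered leachate (edgeR quasi-likelihood test, Benjamini-Hochberg adjusted p under 0.05 over all transcripts tested). Most differences were modest. The median was 1.56-fold among those higher and 1.71-fold among those lower, 28 of the 68 and 70 of the 271 differed less than 1.5-fold, and 101 of the 339 (0.368% of those tested) differed at least 2-fold, 17 of them higher and 84 lower. The 5 weathered values lay wholly above the 5 unweathered ones for 53 of the 68 and wholly below them for 238 of the 271. Over all tested, called or not, the values lay wholly above for 307 (1.12%) and wholly below for 766 (2.79%). Over all transcripts tested the median log2 difference was 0.04, and for 13645 of them (49.8%) the 95% interval stayed within 2-fold in either direction; for the rest it reached past 2-fold. As these are whole bodies, fewer cells of a type and less RNA per cell cannot be told apart.

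The balance of the directions moved with the scaling. Of the calls, 79.9% were lower with TMM scaling, 62.8% with upper quartile scaling (194 of 309) and 90.8% with total counts alone (363 of 400), and the median log2 difference of all transcripts moved from 0.04 to 0.09 and -0.06. No transcript among the 339 changed its sign under these scalings. A scaling moves all log2 differences nearly alike, here by less than the smallest called one (-0.295), so this was fixed in advance. In each of the 10 fits that left out 1 library the count fell. It was 301, 227, 179, 224 and 183 without weathered replicates 1 to 5 in turn. Without unweathered replicates 1 to 5 it was 314, 252, 162, 230 and 196. Over these 10 fits 22 to 67 were called higher and 140 to 247 lower. DESeq2 called 876, and a fit of only the 10 compared libraries called 298, of which 190 were among the 339. Without the controls in the fit 271 were called, of which 261 were among the 339.

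**Figure D1:**
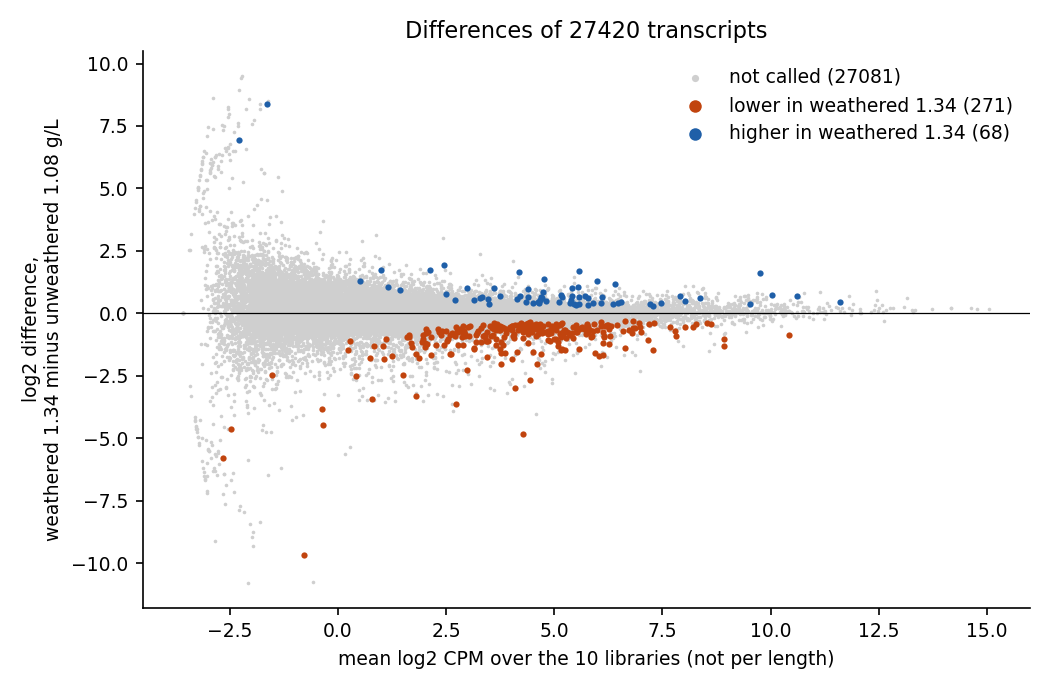
Each point is a transcript, with its mean log2 CPM over the 10 libraries on the x axis and the log2 difference, weathered 1.34 minus unweathered 1.08 g/L, on the y axis. The 271 transcripts called lower and the 68 called higher lie mostly at high read counts, and few are beyond 4-fold (17 lower, 2 higher).

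Calls were concentrated where reads were many. Of 4 bins of 6855 tested transcripts each, ordered by reads, the most-read bin held 54 of the 68 higher and 190 of the 271 lower transcripts, and 3.56% of it was called, against 1.05%, 0.219% and 0.117% in the next bins. Over the same bins the median standard error of the log2 difference went from 0.144 to 0.221, 0.389 and 0.850. The called lower transcripts were long, with a median of 2596 bases against 1911 for all tested and 2193 in the most-read bin; the higher ones had a median of 1784.5 bases. Single-isoform Trinity genes gave 40 of the 68 and 164 of the 271, or 58.8% and 60.5%, against 40.7% of all tested and 47.6% of the most-read bin.

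On the TPM scale, a share of the library corrected for transcript length, the 271 lower transcripts together took 7474, 7457, 6887, 7906 and 6762 TPM in weathered replicates 1 to 5 and 13115, 13817, 16317, 14839 and 15561 TPM in unweathered replicates 1 to 5. The 5 control libraries held 7077 to 9451 TPM of the same transcripts, at the level of the weathered libraries or a little above. The 68 higher transcripts took 13755 to 16802 TPM in weathered libraries and 7979 to 11162 TPM in unweathered ones, with 14538 to 21638 TPM in the control. Such sums follow the most abundant members, among them transcripts with means of 2953 and 1885 TPM over the 10 libraries. Counted singly, 49 of the 68 were above control at weathered 1.34 g/L and 19 below, with a median log2 difference of 0.09. Since both lists were chosen on the contrast of weathered 1.34 and unweathered 1.08 g/L, the gap between the compared groups is a description. The control level is not part of the contrast, but the control libraries share in the estimate of the spread behind the calls.

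The 4 transcripts given by ID are the largest differences in each direction with groups that do not overlap, at a mean of at least 1 log2 CPM. The largest was that of TRINITY_DN2935_c0_g1_i11, of 2430 bases. It stood at 38.3, 72.7, 174, 144 and 185 CPM in unweathered replicates 1 to 5 and at 2.56, 9.39, 1.64, 5.66 and 2.24 CPM in weathered replicates 1 to 5. Every unweathered library was thus above every weathered one, and the control libraries, with a mean of 2.08 CPM (SD 1.34, n = 5), lay with the weathered ones. In the fit it differed by a log2 value of -4.83 (SE 0.886, edgeR adjusted p = 0.00426), which is 28.5-fold lower in weathered leachate.

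Its Trinity gene has 3 isoforms, and all 3 were called lower. Isoform i12 had a log2 difference of -3.62 (SE 0.865, edgeR adjusted p = 0.0284) and isoform i13 of -4.46 (SE 1.02, edgeR adjusted p = 0.0204). Isoform i11 carried 70.3% (SD 17.3, n = 5) of the gene's counts in weathered and 74.5% (SD 3.08, n = 5) in unweathered libraries. This difference is smaller than the spread among the weathered libraries, though not than that among the unweathered ones. The gene as a whole was lower in weathered leachate by a log2 difference of -4.45 (SE 0.811, edgeR adjusted p = 0.00183). In leachates outside the comparison i11 reached 10.99, 25.9, 117, 49.1 and 90.8 CPM at weathered 2.68 g/L, and 83.4, 3.38, 1.501, 22.0 and 14.8 CPM at unweathered 0.54 g/L. Both groups spread widely, and at 2.68 g/L all 5 libraries were above all 5 weathered libraries at 1.34 g/L. At unweathered 0.27 g/L and weathered 0.67 g/L it stayed between 0.929 and 8.58 CPM, among the values of the weathered 1.34 g/L group and the control.

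TRINITY_DN8886_c0_g1_i4, of 2176 bases and the only isoform of its gene, stood at 4.65, 4.75, 4.27, 31.2 and 22.7 CPM in unweathered replicates 1 to 5 and at 1.01, 1.67, 1.31, 0.549 and 2.28 CPM in weathered replicates 1 to 5. The groups do not overlap, but unweathered replicates 4 and 5 were far above the other 3. Its fitted log2 difference was -3.30 (SE 0.586, edgeR adjusted p = 0.00388). With only the 10 compared libraries in the fit the adjusted p was 0.0530, and over all 21 alternatives it ran from 1.46e-06 to 0.0530. Control libraries ran from 0.225 to 2.78 CPM, a range that spans that of the weathered group, and the weathered 2.68 g/L libraries from 2.77 to 9.84 CPM.

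Of those higher in weathered leachate, TRINITY_DN3549_c0_g1_i1, of 1557 bases and 1 isoform, stood at 10.8, 8.02, 12.9, 13.7 and 8.35 CPM in weathered replicates 1 to 5 and at 2.69, 1.89, 2.14, 3.61 and 3.72 CPM in unweathered replicates 1 to 5. All weathered libraries were above all unweathered ones, and the control, at 3.38 to 9.36 CPM, reached into both ranges. Weathered minus unweathered, the log2 difference was 1.93 (SE 0.414, edgeR adjusted p = 0.0129). The call was lost without unweathered replicate 3 (adjusted p = 0.0503) and in limma-voom, where the adjusted p lay just above the threshold, and its adjusted p over all alternatives ran from 0.000301 to 0.0503. At weathered 0.67 g/L the 5 libraries split, with 18.1 and 17.0 CPM in replicates 4 and 5 and 4.21 to 6.47 CPM in the other 3.

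TRINITY_DN22786_c0_g1_i1, of 2509 bases and 1 isoform, stood at 7.73, 6.16, 7.66, 7.27 and 10.8 CPM in weathered replicates 1 to 5 and at 1.78, 2.99, 2.00, 2.70 and 2.30 CPM in unweathered replicates 1 to 5. The unweathered values were close together and all below the lowest weathered one. The log2 difference was 1.75 (SE 0.243, edgeR adjusted p = 0.000289), called under all 21 alternatives with adjusted p from 4.81e-09 to 0.00611. This transcript was highest in the control, at 9.43 to 16.6 CPM, and in the mean lower in every leachate group; it read 6.10 to 8.38 CPM at unweathered 0.54 g/L and 3.87 to 6.11 CPM at weathered 2.68 g/L.

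**Figure D2:**
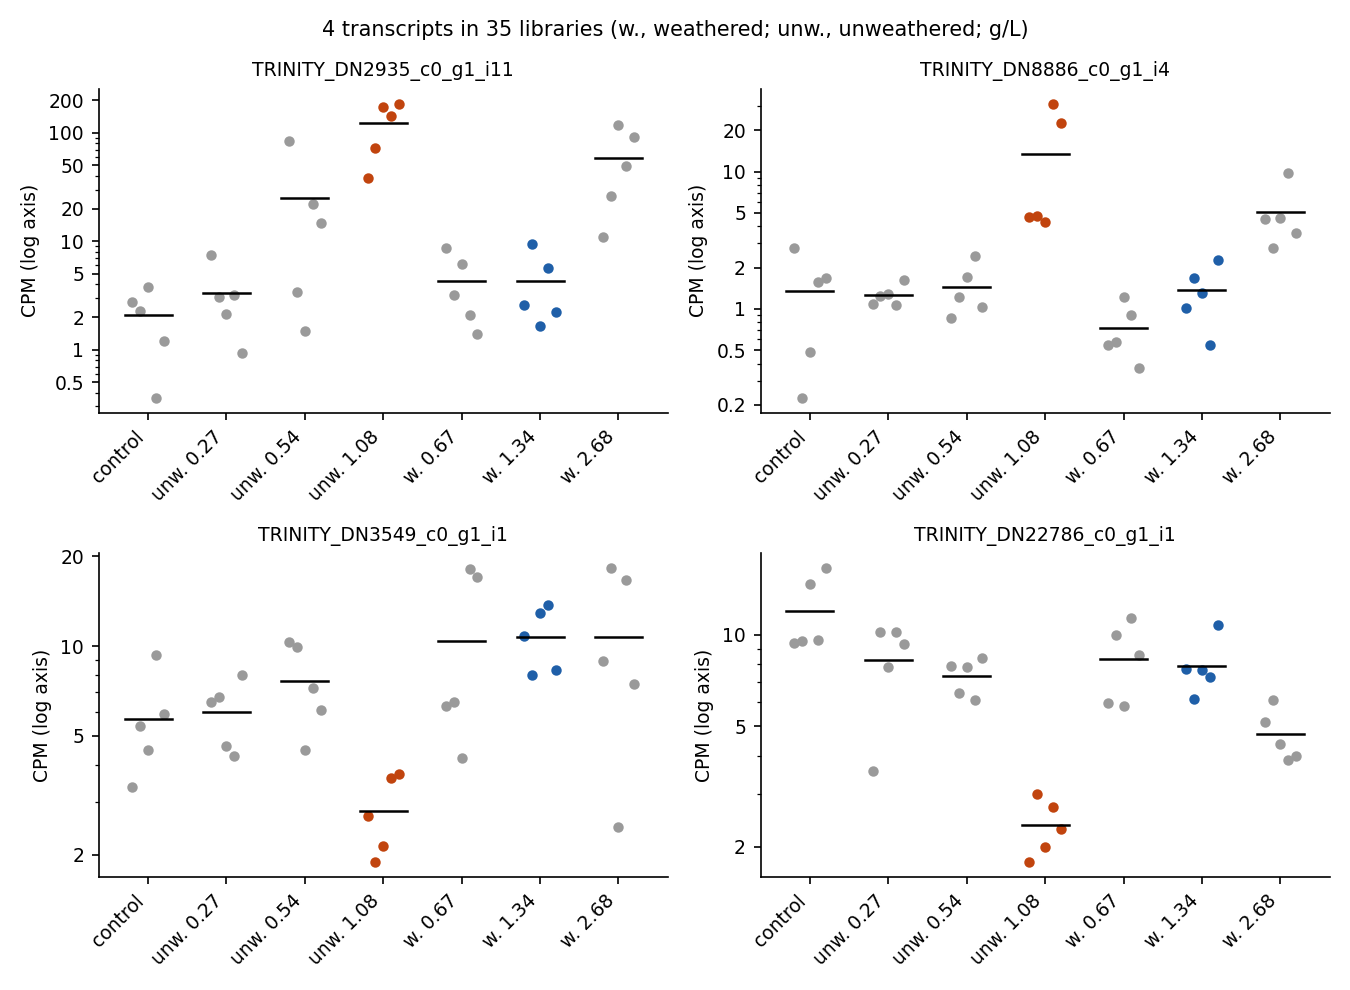
CPM on a log axis of the 4 transcripts given by ID in each of the 35 libraries, by group (w., weathered; unw., unweathered; g/L); points are libraries and bars group means, with weathered 1.34 g/L in blue and unweathered 1.08 g/L in orange. The 5 blue and 5 orange points never overlap, which the choice of these transcripts required. For the first transcript the weathered 2.68 g/L libraries (10.99 to 117 CPM) lie near the orange ones.

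A few further called transcripts, picked after their values were seen, are given without ID. They are extremes by level, size of difference or p, so they do not stand for abundant transcripts in general. The called lower transcript with the highest level, of 1981 bases and a mean of 1165 TPM over the 10 libraries, stood at 1112, 1030, 933, 910 and 1206 CPM in weathered and at 1401, 1617, 3029, 1465 and 2014 CPM in unweathered replicates 1 to 5. The groups were close but separate, and the control, at 755 to 1428 CPM, overlapped both. The log2 difference was -0.88 (SE 0.218, edgeR adjusted p = 0.0370).

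The called higher transcript with the highest level, of 870 bases and a mean of 2953 TPM, stood at 1689, 1708, 2214, 1881 and 2531 CPM in weathered and at 1370, 1479, 1106, 1353 and 912 CPM in unweathered replicates 1 to 5. The control, at 1611 to 2136 CPM, lay with the weathered libraries. The log2 difference was 0.69 (SE 0.165, edgeR adjusted p = 0.0293). A transcript of 948 bases had the largest difference among higher transcripts that reached 500 CPM in a compared group, at 1507, 1901, 1496, 1411 and 1513 CPM in weathered and 418, 456, 446, 932 and 330 CPM in unweathered replicates 1 to 5. Its log2 difference was 1.60 (SE 0.265, edgeR adjusted p = 0.00186). Its control mean was 2380 CPM (SD 944, n = 5), and the means of the unweathered groups were 1610 CPM at 0.27 g/L and 1041 CPM at 0.54 g/L; those of the weathered groups were 1806 CPM at 0.67 g/L, 1565 CPM at 1.34 g/L and 704 CPM at 2.68 g/L. Under both leachates the means thus stood lower at each higher concentration.

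Among lower transcripts that reached 500 CPM, one of 1721 bases had the largest difference, at 327, 351, 223, 473 and 234 CPM in weathered and 494, 835, 924, 900 and 780 CPM in unweathered replicates 1 to 5. Unweathered replicate 1 was the lowest of its group and close to the highest weathered library. The control, at 338 to 636 CPM, overlapped both groups. The log2 difference was -1.29 (SE 0.250, edgeR adjusted p = 0.00609). The smallest p of all belonged to a single-isoform transcript of 3294 bases, at 8.21, 10.8, 11.9, 10.7 and 10.8 CPM in weathered and 24.3, 26.2, 31.2, 27.6 and 41.8 CPM in unweathered replicates 1 to 5. Both groups were tight, and the control ran from 11.4 to 15.6 CPM, overlapping the top of the weathered group. Its log2 difference was -1.53 (SE 0.187, edgeR adjusted p = 9.32e-05).

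Summing isoforms to Trinity genes, which removes the division of reads among isoforms, gave 563 called of 17990 tested (3.13%). Of these, 120 (0.667%) were higher and 443 (2.46%) lower in weathered leachate, with a median log2 difference of 0.54 and -0.62, and 115 (0.639%) differed at least 2-fold, 22 higher and 93 lower. The groups did not overlap for 76 of the 120 and for 364 of the 443; over all genes tested, called or not, they did not overlap for 248 (1.38%) higher and 747 (4.15%) lower. The share of calls that were lower was 78.7% with TMM, 53.9% with upper quartile scaling (312 of 579) and 92.0% with total counts alone (563 of 612). DESeq2 called 986 genes. Without 1 library the count ran from 252 to 593. It was lowest without unweathered replicate 3 (252), followed by weathered replicates 3 (288), 5 (325) and 4 (364). Over the 10 such fits 43 to 124 were higher and 209 to 469 lower.

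The 339 called transcripts belonged to 324 Trinity genes. In 11 of these more than 1 transcript was called, and 0 of the 11 had called transcripts in both directions. All 204 called transcripts that were the only isoform of their gene had their gene called as well. Such a gene has the same counts as its transcript, so this agreement was nearly fixed in advance. Of the 135 from genes with several isoforms, 111 had their gene called and 24 did not, and in 13 of the 135 the log2 difference of the gene was under 0.5 of that of the transcript. Their median size of difference was 0.80 for the transcript and 0.63 for its gene. In the other direction, 263 of the 563 called genes had no called transcript, 136 of them with several isoforms and 127 with 1.

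**Figure D3:**
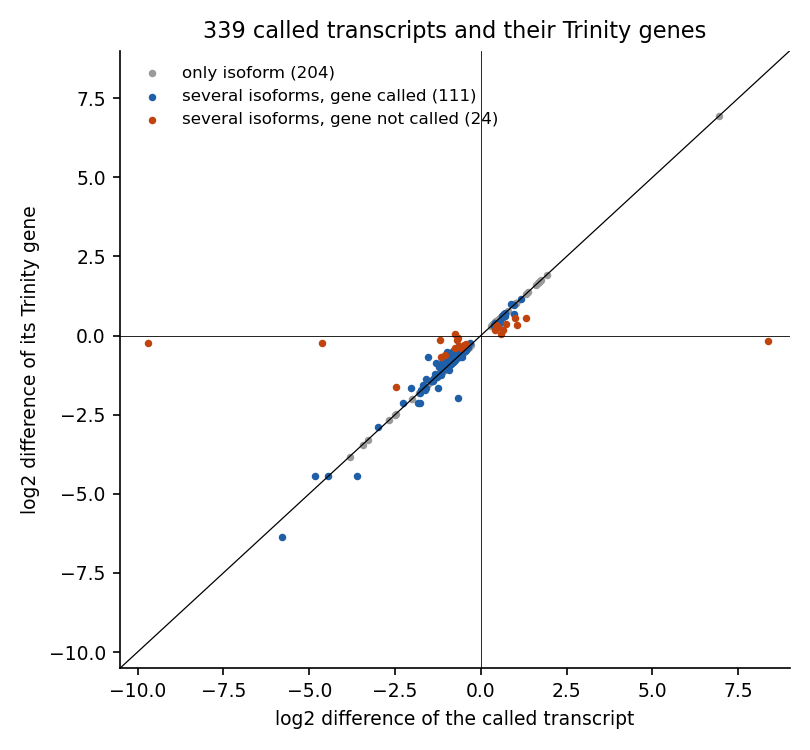
Each point is 1 of the 339 called transcripts, with its own log2 difference on the x axis and that of its Trinity gene on the y axis, and the line marks equal values. Most points follow the line, and 337 of 339 have the sign of their gene. The 204 that are the only isoform lie close to it because their gene has the same counts. The 24 transcripts whose gene was not called lie nearer to 0 on the y axis.

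A few calls rested on an isoform that was near 0 in one compared group while its gene was not. An isoform of 2207 bases, 1 of 4 of its gene, had 0 counts in all 5 weathered 1.34 g/L libraries and 41 to 207 counts in each of the unweathered 1.08 g/L libraries, 545 in all. Against the limit of 3 counts that a group total of 0 allows, it was at least 182-fold lower in weathered leachate by counting error alone. This bound leaves out the spread between libraries. The fit, which includes that spread, gave a log2 difference of -9.68 (SE 2.31). Its gene had a log2 difference of -0.23 (edgeR adjusted p = 0.503). The isoform was also without a count in libraries of other groups, with counts in 3 of 5 control, 4 of 5 weathered 2.68 g/L and 2 of 5 weathered 0.67 g/L libraries.

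An isoform of 1810 bases, 1 of 6, went the other way, with 188 counts in the weathered libraries (8 to 83 each) and 0 in the unweathered 1.08 g/L libraries. By counting error alone it was at least 62.7-fold higher in weathered leachate, and in the fit its log2 difference was 8.38 (SE 1.53). Its gene had a log2 difference of -0.17 (edgeR adjusted p = 0.353). The isoform had counts in 4 of 5 control libraries and in all 5 unweathered 0.27 and 0.54 g/L libraries. In all, 5 of the 339 calls had a group total of 3 counts or fewer. In 2 of these the gene was called too: a transcript of 519 bases, the only isoform of its gene (gene log2 difference 6.94, edgeR adjusted p = 0.0195), and one of 3979 bases (gene log2 difference -6.35, edgeR adjusted p = 0.0231). The folds at the floor compare group totals that were not scaled for depth, and cover counting error only.

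The other libraries show where the called transcripts stood outside the comparison. None of these libraries was used in the contrast, though they share the estimate of the spread. Between weathered 0.67 and unweathered 0.54 g/L, the other pair of near concentrations, 245 of the 271 lower transcripts were also lower in weathered leachate, with a median log2 difference of -0.32. Of all transcripts tested 48.8% were lower in this pair, with a median of 0.01, and of the most-read bin 48.1%, with a median of 0.01. Of the 68 higher transcripts 61 were higher in this pair, with a median of 0.23. Weathered 0.67 g/L replicate 1 stood apart, and without it, an alternative added after the data were seen, the counts were 244 of 271 and 60 of 68, with medians of -0.25 and 0.17. Of all 27834 transcripts tested in that fit, 13954 were lower and 13860 higher. For Trinity genes 380 of the 443 lower and 100 of the 120 higher ones had the same sign in this pair, with medians of -0.26 and 0.17. Of all genes tested 47.9% were lower and 52.1% higher in this pair, with a median of 0.01.

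By library, the 271 lower transcripts had a median log2 level over the control mean of 0.38, 0.52, 0.67, 0.55 and 0.62 in unweathered 1.08 g/L replicates 1 to 5 and of -0.17, -0.19, -0.29, -0.22 and -0.16 in weathered 1.34 g/L replicates 1 to 5. Each unweathered library at 1.08 g/L stood above the control mean and each weathered one at 1.34 g/L below it. The list was chosen on this contrast, which by itself sets the compared groups apart and tends to leave the control between them. Nothing is therefore read from their sides. The groups outside the contrast shared in the estimate of the spread behind the calls. There the same median ran from 0.04 to 0.14 at unweathered 0.54 g/L and from 0.001 to 0.20 at unweathered 0.27 g/L. It ran from -0.47 to -0.06 at weathered 0.67 g/L, from -0.06 to 0.30 at weathered 2.68 g/L and from -0.07 to 0.05 in the control. For this list, called with all 35 libraries, the weathered 0.67 g/L libraries thus lay on the side of weathered 1.34 g/L. Of the 5 at weathered 2.68 g/L, 4 lay on the side of the unweathered ones.

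The comparisons with the control share the control libraries, and their medians are given side by side. For the 271 lower transcripts the median log2 difference from control was -0.23 at weathered 1.34 g/L and 0.56 at unweathered 1.08 g/L, and in groups outside the comparison it was -0.19 at weathered 0.67, 0.16 at weathered 2.68, 0.11 at unweathered 0.27 and 0.11 at unweathered 0.54 g/L. For the 68 higher ones it was 0.09 at weathered 1.34 and -0.50 at unweathered 1.08 g/L, and 0.14 at weathered 0.67, -0.16 at weathered 2.68, -0.06 at unweathered 0.27 and -0.07 at unweathered 0.54 g/L. With the list called on the 10 compared libraries alone, the value of the lower list at weathered 2.68 g/L turned to -0.032.

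**Figure D4:**
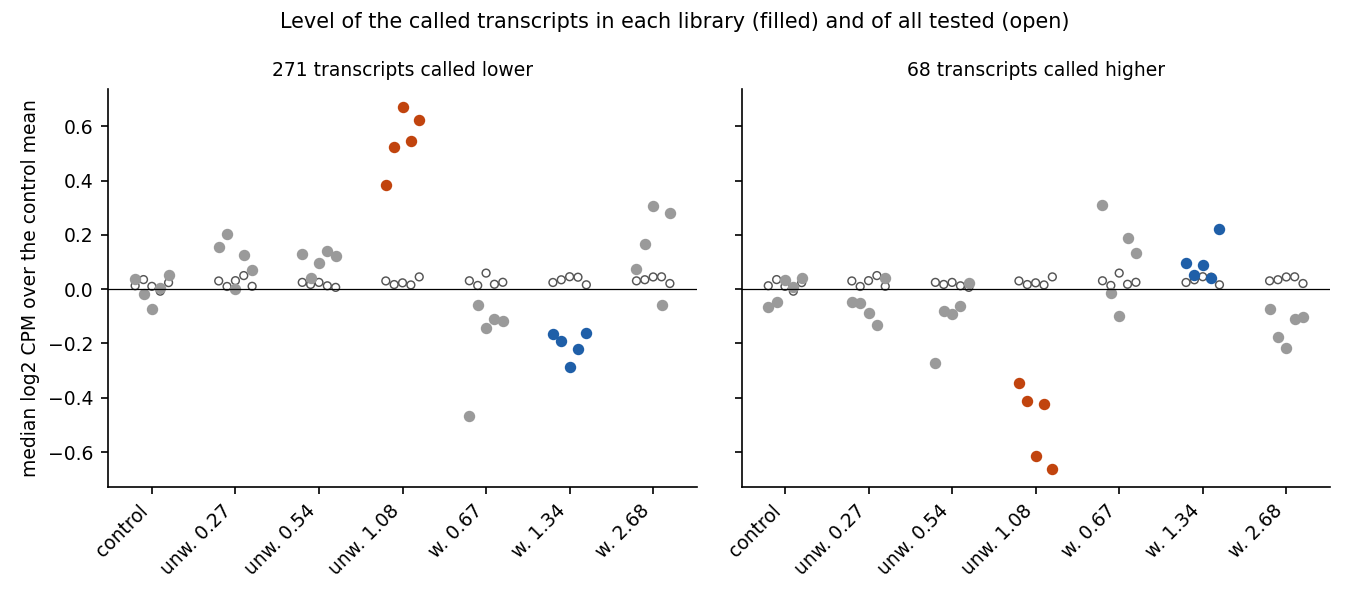
Median log2 CPM over the control mean of the 271 lower (left) and 68 higher (right) transcripts in each library as filled points, and of all transcripts tested as open points, by group (w., weathered; unw., unweathered; g/L). In the left panel the unweathered 1.08 g/L libraries (orange, 0.38 to 0.67) lie above 0 and the weathered 1.34 g/L libraries (blue, -0.29 to -0.16) below it, with weathered 0.67 g/L below 0 as well. The transcripts were chosen on the contrast of the orange and blue groups, so the gap between those is a description.

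Set against the control, more of the transcripts called with all 35 libraries stood farther from it on the unweathered side. The control mean lay between the compared means for 196 of the 271 lower transcripts and 49 of the 68 higher ones, and below both for 73 of the 271. Choosing transcripts whose compared means are far apart raises the first of these counts by itself, so nothing is read from it. It was nearer to the weathered mean for 197 of the 271 (72.7%) and 57 of the 68 (83.8%), against 55.3% of all tested. With the transcripts called on the 10 compared libraries alone these shares were 55.1% and 65.9%, which for the lower ones is near that of all tested. The control libraries shared in the estimate of the spread behind the first choice of transcripts and had no part in the second.

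**Figure D5:**
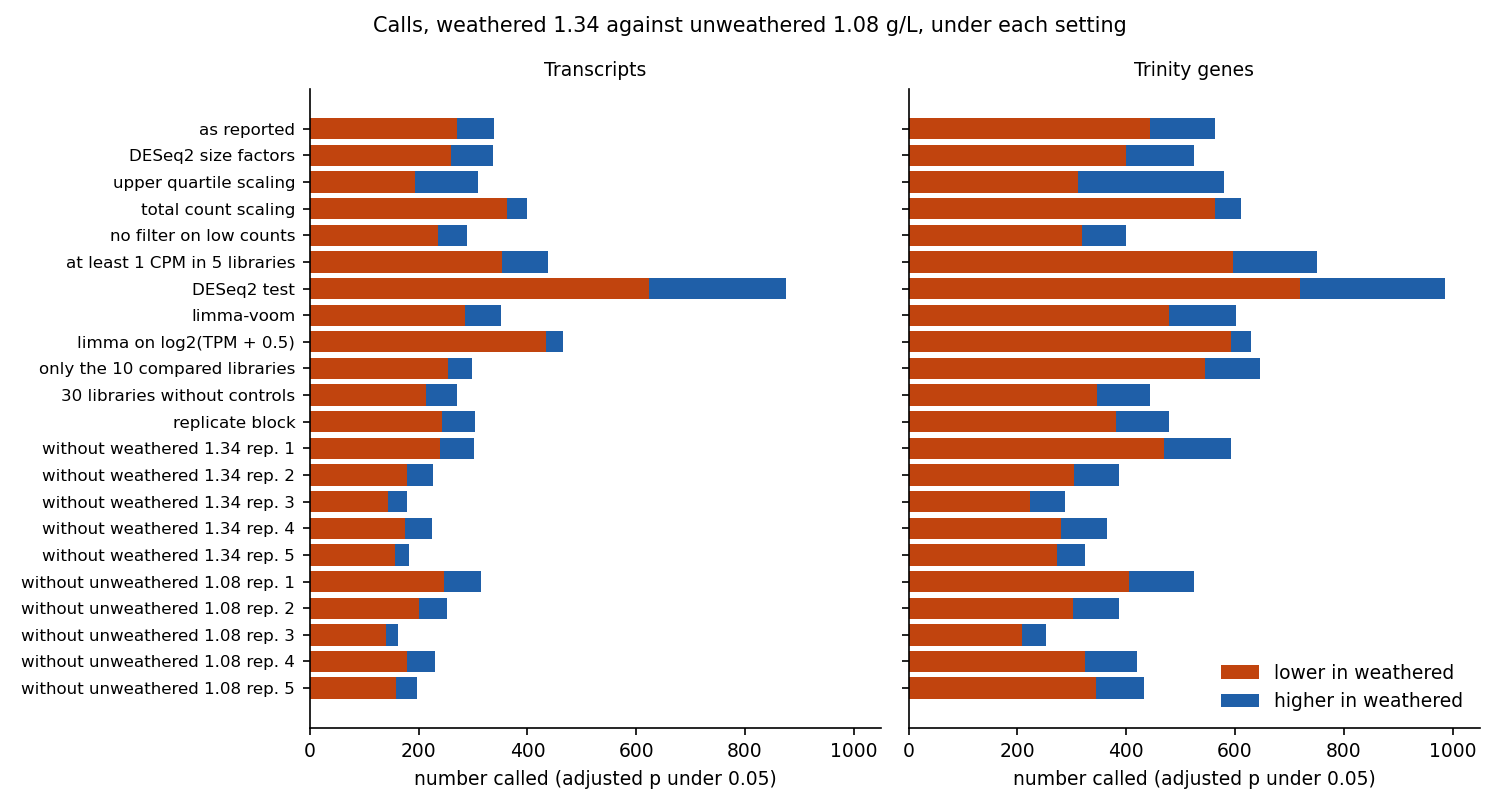
Number of transcripts (left) and Trinity genes (right) called, split into lower (orange) and higher (blue) in weathered leachate, as reported and under each other setting, from 0 on the x axis. Lower calls outnumber higher ones in every bar, and the total ranges from 162 to 876 transcripts and from 252 to 986 genes.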

How the data were processed

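Libraries were made from 250 ng of total RNA by poly(A) selection and strand-aware cDNA synthesis, per the labels' protocols. The submitters' processing notes name Trimmomatic 0.38, kallisto and DESeq2. The kallisto version and the assembly are not given in the notes or labels. The estimated count and the TPM of 34903 transcripts (22900 Trinity genes) were deposited by the authors for each library.

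Estimated counts were rounded to whole numbers; for genes they were first summed over isoforms. edgeR 4.0.16 in R 4.3.3 fitted 7 group means to all 35 libraries, which share 1 estimate of the spread, with TMM scaling and the filterByExpr filter (minimum count 10, minimum total 15), which kept 99.86% to 99.95% of counts. The quasi-likelihood test gave p-values, adjusted over all features tested and called under 0.05. The standard error is the log2 difference divided by the square root of F. Named transcripts were at most 2 in each direction: called, with a mean log2 CPM of at least 1, no overlap of groups, and the largest difference, 1 per Trinity gene. Alternatives used limma 3.58.1 (also on log2(TPM + 0.5)), DESeq2 1.42.0, other scalings and filters, and fewer libraries. The comparison, lists and tests were chosen with earlier results of these data known. The authors' own tables of comparisons were not used here.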

Additional observations from a re-analysis of the deposited data

Results flagged for a closer look

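In 5 of 78 groups of 5 values checked, the highest or lowest value stood farther from its neighbour than 0.71 of the group's range. Chance gives this in about 1 group in 20 for independent, normally distributed values. The groups included CPM values not on a log scale, and transcripts beside genes with the same counts, so that rate is only a guide. TRINITY_DN2935_c0_g1_i11 was at 83.4 CPM in unweathered 0.54 g/L replicate 1, above the next library at 22.0 CPM. TRINITY_DN8886_c0_g1_i4 was at 9.84 CPM in weathered 2.68 g/L replicate 4, above the next at 4.64 CPM, and its Trinity gene TRINITY_DN8886_c0_g1, which has no other isoform, was at 9.80 CPM in the same library, above 4.64 CPM. The median log2 level of the 271 lower transcripts over the control mean was -0.47 in weathered 0.67 g/L replicate 1, below the next library at -0.14. Unweathered 1.08 g/L replicate 5 correlated least with its own group, with a median of 0.897 against 0.913 for the next library; without it 196 transcripts were called.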

How the results depend on the processing

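The 339 transcripts and 563 genes had the same sign wherever an alternative tested them. Every alternative reused these libraries in whole or part, and for the scalings the sign was nearly fixed in advance. DESeq2 called 876 transcripts (253 higher, 623 lower) and 986 genes (266 and 720). Higher transcripts numbered 115 with upper quartile scaling, 37 with total counts, 32 with limma on log2(TPM + 0.5), which called 434 lower, and 44 with only the 10 compared libraries; higher genes numbered 267, 49 and 38 in the first 3 of these. The cause was not tested. Without 1 library 162 to 314 transcripts (22 to 67 higher, 140 to 247 lower) and 252 to 593 genes (43 to 124 and 209 to 469) were called, with fewer samples in each fit.

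The control mean was nearer to the weathered one for 91.9% of higher and 64.7% of lower transcripts with total counts, 65.9% and 55.1% with the 10 compared libraries, and 65.7% of lower genes; the most-read bin held 60% of higher and 55.1% of lower genes. The median of the lower list at weathered 2.68 g/L against control reversed to -0.032 with the 10 libraries. For the 4 named transcripts and their genes, 165 alternative values kept their direction and side of the threshold and 3, given with those transcripts, kept only the direction.

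A replicate block gave 303 transcripts (60 higher, 243 lower) and 479 genes. Deviations of same-numbered libraries of the compared groups correlated at -0.11 to -0.058, within the -0.27 to 0.19 of the 20 other pairs. In all, 0 of 5 correlated best with their own number. No pairing by number was thus seen, but 5 pairs are too few to exclude one. The standard error was larger in bins with fewer reads, where fewer differences were called; whether depth alone accounts for this was not tested.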
